A study of Mus musculus with 2 samples.

Results

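The integrated stress response genes described here were Atf4, Ddit3, Mars, Asns, Trib3, Ppp1r15a and Chac1, which are genes of the Atf4 pathway together with Mars, taken because it shares an anchor with Ddit3. They were 7 of the 12749 protein-coding genes with a contact in either library. A contact was counted for a gene when a contact anchor lay within 1 kb of the gene body in mm9, on the same or on another chromosome, with any number of paired-end tags (PETs). RNA Pol II ChIA-PET ligates the ends of DNA fragments that are near each other and pulled down with an antibody to RNA Pol II. A contact is here a pair of peaks joined by at least 1 PET, whether or not it passed a test, and these peaks are its anchors. The Ronin knockout cells were mouse embryonic stem cells (ESCs) of the genotype CreERT2; Roninflox/flox given tamoxifen for 4 days, which activates the Cre recombinase. The control cells were ESCs with the same alleles given ethanol for 4 days, so both groups carried CreERT2 and the floxed Ronin (Thap11) alleles and were derived from blastocysts. Each condition had 1 library, merged by the authors from 2 replicates, so the spread between replicates is unknown, and the loss of Ronin protein cannot be read from contacts.

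In the integrated stress response, kinases that sense amino acid shortage, unfolded protein, haem deficiency or viral RNA phosphorylate the translation factor eIF2. General translation then slows, while the messenger of Atf4, a basic leucine zipper transcription factor, is translated more. ATF4 switches on genes of amino acid supply and redox balance, the transcription factor Ddit3 (also known as CHOP) and the feedback regulators Trib3 and Ppp1r15a. The response is known in ESCs, as in most cells, as a reaction to starvation and to stress of the endoplasmic reticulum or of mitochondria.

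The promoters are shown first because the contacts of the 7 genes were made by anchors that contain them. The sequences were read from NCBIM37 (mm9) by the gene starts of GENCODE vM1, 5′ to 3′ on the strand of the gene, over the 250 bases before the gene start. Capitals mark the C/EBP-ATF response element (CARE, searched as TGATGNAAN), the cyclic AMP response element (CRE, searched as TGACGTCA) and the CCAAT box (searched as CCAAT), each on both strands. The promoters of Atf4, Trib3, Ppp1r15a and Chac1 are shown because between them they hold each of these motifs.
Atf4, chr15:80085364-80085613, plus strand: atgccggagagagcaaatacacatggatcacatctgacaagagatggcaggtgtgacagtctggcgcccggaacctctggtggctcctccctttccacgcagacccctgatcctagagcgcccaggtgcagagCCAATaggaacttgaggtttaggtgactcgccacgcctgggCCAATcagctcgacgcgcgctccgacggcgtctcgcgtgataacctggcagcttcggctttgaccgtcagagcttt
Trib3, chr2:152169769-152170018, minus strand: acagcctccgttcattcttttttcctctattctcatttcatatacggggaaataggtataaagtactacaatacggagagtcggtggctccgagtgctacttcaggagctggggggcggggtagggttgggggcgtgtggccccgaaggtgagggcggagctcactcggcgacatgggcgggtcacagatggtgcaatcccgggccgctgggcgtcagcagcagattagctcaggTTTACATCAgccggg
Ppp1r15a, chr7:52781639-52781888, minus strand: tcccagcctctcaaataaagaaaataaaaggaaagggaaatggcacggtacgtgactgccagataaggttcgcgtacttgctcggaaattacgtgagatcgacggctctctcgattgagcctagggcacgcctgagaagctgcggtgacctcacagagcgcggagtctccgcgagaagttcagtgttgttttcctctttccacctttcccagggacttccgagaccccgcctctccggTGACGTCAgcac
Chac1, chr2:119176715-119176964, plus strand: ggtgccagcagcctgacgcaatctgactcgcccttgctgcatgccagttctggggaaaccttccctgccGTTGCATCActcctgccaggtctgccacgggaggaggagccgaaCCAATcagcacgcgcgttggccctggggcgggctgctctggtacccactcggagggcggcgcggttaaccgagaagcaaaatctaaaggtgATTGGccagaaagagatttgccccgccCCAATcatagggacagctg

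With a window from 250 bases before to 50 bases after the gene start, a CARE was found at 3 of the 7 genes, namely Asns, Trib3 and Chac1, and in 3.63% of 22380 protein-coding promoters. The Asns copy lay 23 to 31 bases after the gene start and is shown with its flanks, since it falls outside the stretches printed above.
Asns, chr6:7643224-7643232 for the capitals, minus strand: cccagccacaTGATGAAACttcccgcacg
The Trib3 copy began 15 bases and the Chac1 copy 181 bases before the gene start, both on the reverse strand. A CRE was found at Ppp1r15a, 12 bases before its start, and in 2.32% of promoters. CCAAT boxes were found at Atf4 (2 copies), Chac1 (3 copies), Ddit3 (1 copy) and Mars (1 copy), a motif that 37.9% of promoters held. The Ronin-binding motif, as an exact match to its consensus on either strand, was in none of the 7 windows and in 0.92% of promoters. These matches describe the letters in the window only.

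The 7 genes were covered by 6 anchors, and each gene had exactly 1 anchor in each library. Ddit3 (chr10:126727830-126733344, plus strand) and Mars (chr10:126733277-126748842, minus strand) overlap at their 3′ ends and lay in a single anchor of 56.0 kb in the knockout library and 52.3 kb in the control library, so their contacts cannot be told apart. Dctn2 and Mbd6 also lay at that anchor, and in the knockout library Kif5a did too. The Atf4 gene (chr15:80085614-80087970, plus strand) shared its anchor of 21.3 kb in the knockout and 16.5 kb in the control library with Rps19bp1 and Smcr7l. Trib3 (chr2:152163158-152169768, minus strand) shared its anchor with Rbck1, over 26.3 kb in the knockout and 26.1 kb in the control library. Ppp1r15a (chr7:52778286-52781638, minus strand) shared an anchor of 13.04 kb in the knockout and 13.3 kb in the control library with Plekha4 and Tulp2. Asns (chr6:7625169-7643254, minus strand) and Chac1 (chr2:119176965-119180117, plus strand) had anchors to themselves, of 28.6 kb and 16.1 kb in the knockout library and 28.7 kb and 15.2 kb in the control library. The median anchor was 4.74 kb wide in the knockout library and 3.28 kb in the control library, and even the narrowest of the 6 anchors was wider than 81.4% of knockout anchors and 88.3% of control anchors.

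An exact copy of the Ronin-binding motif lay in the Ppp1r15a anchor, in both libraries, and in none of the other 5 anchors. It was at chr7:52775284-52775298 on the minus strand, within Tulp2 but in no annotated exon, 2.99 kb past the 3′ end of Ppp1r15a. It is shown with its flanks, the motif in capitals, because Ronin is the factor that was deleted.
Tulp2, outside its exons, minus strand: gaggcctgCTGGGAAATGTAGTCcatttgc
Such a copy was present in 3.11% of knockout and 2.63% of control anchors at least 13 kb wide. Of the contacts of the 6 anchors, 9 of 218 (4.13%) in the knockout and 15 of 530 (2.83%) in the control library led to a partner anchor with the motif. Of all contact ends, 2.98% in the knockout and 2.64% in the control library did.

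The knockout library held 65276 PETs in 44328 pairs of anchors and the control library 156097 PETs in 128267 pairs, so that the knockout library had 41.8% of the PETs of control. Contacts between chromosomes made up 81.4% of PETs in the knockout and 84.2% in the control library, and 97.9% and 98.3% of pairs in the knockout and control library rested on 1 PET. Markers of ESCs had PETs at 8 of 8 genes (235 in the knockout and 735 in the control library in all, with Zfp42 lower by the binomial test), while 6 of 6 fibroblast markers had 0 PETs in both libraries. Primitive endoderm markers had 6 PETs in the knockout and 7 in the control library, over 4 of 6 genes.

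All 7 genes had fewer PETs in the knockout library than in the control library, and the whole knockout library was smaller too. In bulk cells, a contact made in fewer cells and a contact made less often in each cell cannot be told apart. Atf4 had 50 PETs in the knockout library and 161 in the control library, which was 31.1% of control (95% counting interval 22.1 to 42.9%). Ddit3 and Mars, which codes for methionyl-tRNA synthetase, had 64 PETs in the knockout and 114 in the control library, or 56.1% of control (40.7 to 76.9%). Asns, which makes asparagine from aspartate and glutamine, had 16 PETs in the knockout and 61 in the control library, or 26.2% (14.1 to 46.1%). Among the 7 genes Asns kept the smallest share of control, and its interval overlapped those of the other genes. Trib3, a pseudokinase that restrains AKT and ATF4, had 44 PETs in the knockout and 99 in the control library, or 44.4% (30.4 to 64.0%). Ppp1r15a (GADD34), which brings a phosphatase to eIF2 to end the response, had 22 PETs in the knockout and 53 in the control library, or 41.5% (24.0 to 69.4%). Chac1, which breaks down glutathione, had 29 PETs in the knockout and 50 in the control library, or 58.0% (35.4 to 93.5%). Over the 6 anchors, with each contact once, there were 225 PETs in the knockout and 536 in the control library, or 42.0% of control (35.8 to 49.1%), which is 0.345% and 0.343% of the PETs of the knockout and control library.

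**Figure D1:**
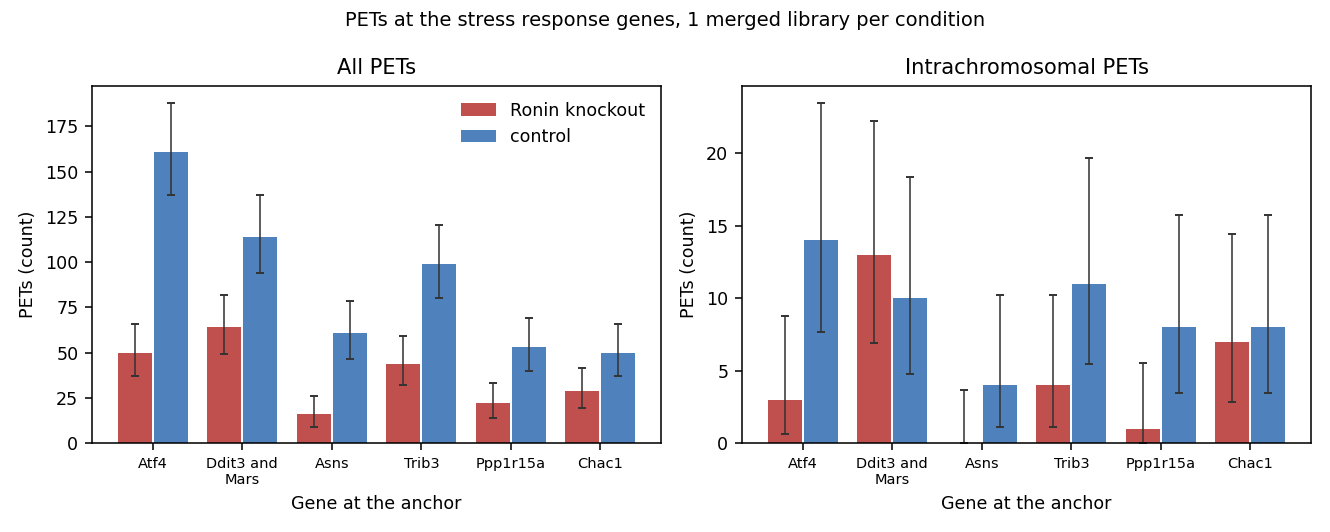
PETs at each anchor in the Ronin knockout library (red, left) and the control library (blue, right), for all contacts in the left panel and for those within a chromosome in the right panel, with exact Poisson 95% intervals that cover counting error only. Atf4 had 50 PETs in the knockout and 161 in the control library, and Ddit3 with Mars had 13 intrachromosomal PETs in the knockout and 10 in the control library.

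Per 10 kb of anchor, Atf4 had the densest contacts in both libraries, 23.4 PETs in the knockout and 97.5 in the control library. Its control interval (83.0 to 113.8) did not overlap that of Ppp1r15a, the next in order with 40.0 PETs per 10 kb (29.95 to 52.3). In the knockout library Atf4 (17.4 to 30.9) and the next in order, Chac1 with 18.1 (12.1 to 25.9), had overlapping intervals, as had Ppp1r15a at 16.9 and Trib3 at 16.7. Lowest in both libraries was Asns, with 5.59 PETs per 10 kb in the knockout and 21.2 in the control library. Next above it in both libraries was the Ddit3 and Mars anchor, with 11.4 in the knockout and 21.8 in the control library, and the 2 anchors had overlapping intervals. The anchor of Atf4 was itself wider in the knockout library, which enters this value for it more than for the others.

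None of the 7 genes was called as different between the libraries after scaling to the same total of PETs. Each gene's PETs were compared by an exact two-sided binomial test with the knockout share of all PETs (29.5%), with Benjamini-Hochberg adjustment over the 12749 genes, and a gene was called at an adjusted p below 0.05. The test compares the 2 libraries and not the conditions. By it, 2.23% of genes were called lower and 2.01% higher in the knockout library, and of the 7 genes 0 were called in either direction and 0 had an unadjusted p below 0.05. A scaled log2 ratio, with 1 PET added to each scaled count, was −0.42 for Atf4 (exact binomial adjusted p = 0.451), −0.65 for Asns (0.545) and −0.01 for Ppp1r15a (1). It was 0.09 for Trib3 (exact binomial adjusted p = 1), 0.42 for Ddit3 and Mars (0.452) and 0.46 for Chac1 (0.694). The counting intervals still allow sizeable differences, since the scaled ratio could lie between 0.338 and 1.102 for Asns, between 0.530 and 1.03 for Atf4 and between 0.846 and 2.23 for Chac1. A 2-fold difference was not reached by any of the 7 genes. Of the 8929 genes with at least 10 PETs, 12.2% were past 2-fold lower and 5.99% past 2-fold higher. These genes had a median of 11 PETs in the knockout and 27 in the control library, fewer than any of the 7 genes. The shares are therefore not matched for depth. The median scaled log2 ratio of the 8929 genes was −0.20, with 61.9% of them below 0, and 3 of the 7 genes were below 0. Counting each pair once, a choice made after seeing the data, gave a median of 0.06 for all genes with at least 10 pairs, and 2 of the 7 genes were below 0. The sign of the median thus depended on whether PETs or pairs were counted.

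**Figure D2:**
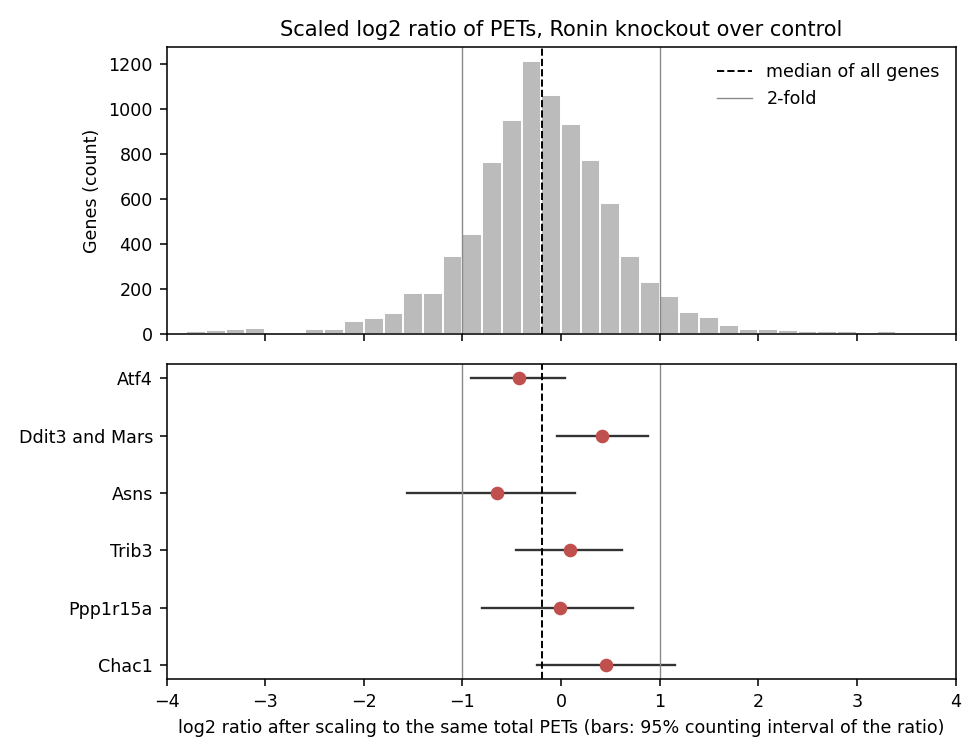
Scaled log2 ratio of PETs, Ronin knockout over control, for the 8929 genes with at least 10 PETs (histogram, upper panel) and for the 6 anchors of the stress response genes (points with 95% counting intervals, lower panel). The median of all genes was −0.20, and the 6 points lay between −0.65 (Asns) and 0.46 (Chac1), inside the lines that mark 2-fold.

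These directions depended on the totals used for scaling. Scaled by intrachromosomal PETs, Trib3 was at −0.15, Ppp1r15a at −0.24, and 0 of the 7 genes were called, with an adjusted p of 0.0502 for Atf4 by the exact binomial test. Scaled by the study's totals of sequenced PETs over 5 kb, all 7 genes were below 0, between −0.45 for Chac1 and −1.55 for Asns, and the median of all genes was −1.08. The exact binomial test then called Atf4 (adjusted p = 1.39e-08), Asns (0.000199), Trib3 (0.00464) and Ppp1r15a (0.0337) lower, and 32.2% of all genes with them, whereas Ddit3 and Mars (0.0663) and Chac1 (0.318) were not called. With no scaling, 6 of the 7 genes, with Ddit3 and Mars at 1 anchor, were called lower, all but Chac1 (exact binomial adjusted p = 0.0540), beside 42.7% of all genes. Other totals move every gene by nearly the same amount, so the distance of a gene from the median of all genes is fixed by construction under these scalings. With all pairs it was −0.46 for Asns, −0.23 for Atf4, 0.19 for Ppp1r15a, 0.28 for Trib3, 0.62 for Ddit3 and Mars and 0.66 for Chac1, in log2 units. It moved with the pairs that were counted. With intrachromosomal pairs it was −1.77 for Asns, −1.25 for Ppp1r15a, −0.82 for Atf4, −0.16 for Trib3, 0.96 for Chac1 and 1.51 for Ddit3 and Mars, so that Ppp1r15a and Trib3 changed side. With pairs of at least 2 PETs, Atf4 was at 0.59, Ppp1r15a and Chac1 at −0.75 and Ddit3 and Mars at 2.79, so that Atf4, Ppp1r15a and Chac1 were on another side than with all pairs. None of the 7 genes was called by the exact binomial test with either of these choices.

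**Figure D3:**
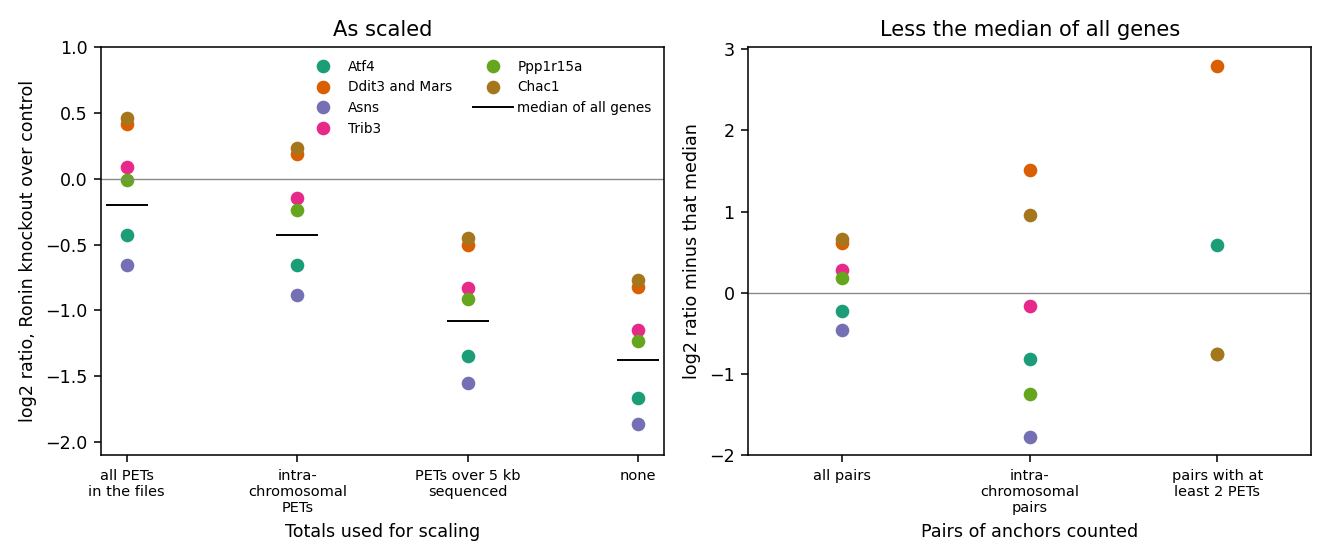
Log2 ratio of PETs, Ronin knockout over control, of the 6 anchors under 4 totals used for scaling (left panel, with black bars for the median of all genes) and the same, scaled to the PETs counted, less the median of all genes for 3 choices of pairs (right panel). The ratio of Chac1 was 0.46 when scaled by all PETs and −0.77 with no scaling, and its distance from the median was 0.66 with all pairs and −0.75 with pairs of at least 2 PETs, where Asns and Trib3 have no point.

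Most contacts of the 6 anchors led to other chromosomes and rested on 1 PET. There were 218 pairs in the knockout and 530 in the control library, of which 97.2% and 98.9% had 1 PET in the knockout and control library. The study's methods ask for 3 independent PETs in a high-confidence interaction. For its Ronin ChIA-PET, the paper left out contacts between chromosomes, which it cites as noisier. The most PETs in a pair of the 6 anchors were 3 in the knockout and 2 in the control library, so nearly all partners named here fall short of that rule. Intrachromosomal PETs made up 28 of 225 (12.4%) in the knockout and 55 of 536 (10.3%) in the control library, against 18.6% and 15.8% of all PETs of the knockout and control library. The library shares include single pairs of up to 579 PETs in the knockout and 912 in the control library. By pairs the 6 anchors were near the libraries. Of their pairs 24 of 218 in the knockout and 54 of 530 in the control library were intrachromosomal, beside 5037 of 44328 and 12330 of 128267 of all pairs. Partner anchors held a promoter in 75.2% of pairs in the knockout and 72.5% in the control library, close to the 76.6% and 73.9% of all contact ends in the knockout and control library. In 7 pairs of each library (3.21% in the knockout and 1.32% in the control library) the same gene was joined to an overlapping partner anchor in the other library, where 3.93% and 1.36% of all pairs of the knockout and control library were found again. A pair that is missing from a library can also mean that no peak was called there.

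**Figure D4:**
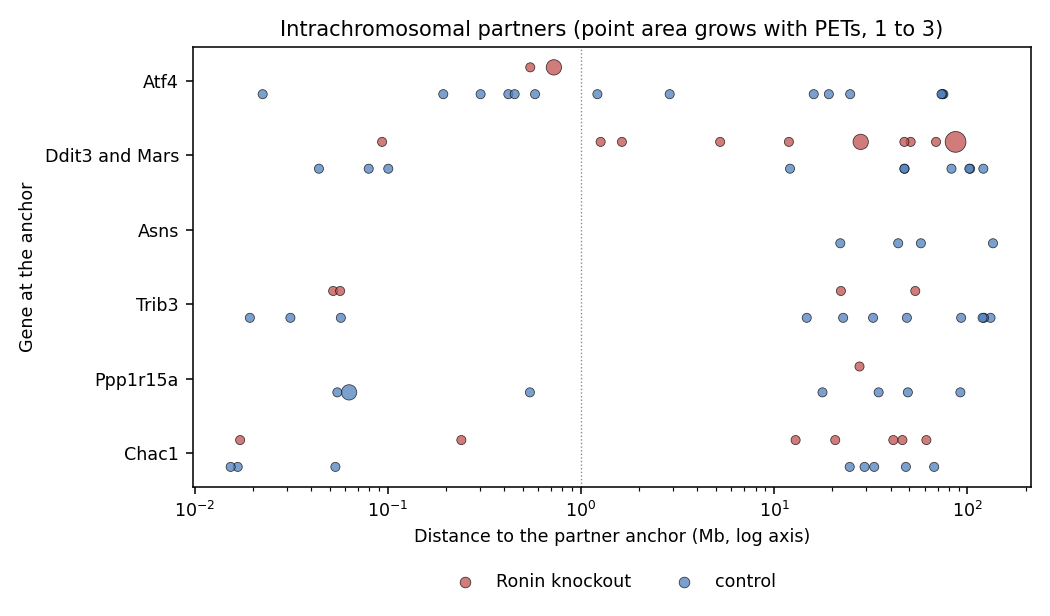
Intrachromosomal partners of the 6 anchors by their distance in Mb on a log axis, in the Ronin knockout (red, upper row of each gene) and the control library (blue, lower row), with larger points for 2 and 3 PETs. Asns had 0 intrachromosomal partners in the knockout and 4 in the control library, and the dotted line marks 1 Mb, within which 7 of 24 knockout and 18 of 54 control pairs fell.

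Atf4 had 48 partners in the knockout and 158 in the control library, of which 2 in the knockout and 14 in the control library were on chromosome 15. The knockout pair with Ddx17 and Kdelr3, 723 kb away, had 2 PETs, and that with Tnrc6b, 545 kb away, had 1 PET. In the control library, 6 partners within 1 Mb had 1 PET each, at Smcr7l (22.5 kb away), Cbx7 (302 kb), Cbx6 with Npcd (420 kb), Cby1 with Gtpbp1, Josd1 and Tomm22 (577 kb) and 2 anchors with no protein-coding gene (193 and 453 kb). Rbx1 (1.21 Mb), Poldip3 with Cyb5r3, Rrp7a and Serhl (2.87 Mb) and 6 anchors beyond 10 Mb, at Mrpl13 with Mtbp, Rpl37 with Gm10250, Rictor, Nckap5l and 2 places with no gene, completed the control list. Intrachromosomal PETs were thus 3 in the knockout and 14 in the control library, 21.4% of control with an interval of 3.95 to 76.8%, beside 49.2% for the whole libraries. Between chromosomes, Gja1 (connexin 43) had 2 PETs in the knockout library, and Mt1 with Mt2 (metallothioneins), Gm10800 and a histone cluster with Hist1h1a had 2 PETs each in the control library. No partner of Atf4 was found in both libraries.

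Ddit3 and Mars had 59 partners in the knockout and 113 in the control library, with 13 intrachromosomal PETs in the knockout and 10 in the control library. Theirs was the single anchor of the 6 with more intrachromosomal PETs in the knockout library, at 130% of control, and the interval of 52.7 to 331% spans both directions. The knockout library held 4 pairs with more than 1 PET at this anchor, against 1 in the control library. Of these, Gtf3c6 with Rpf2 (86.8 Mb away) had 3 PETs, and Dusp6, a phosphatase of ERK (28.0 Mb), had 2. The X-linked anchor of Ribc1 and Smc1a (a cohesin subunit) and an anchor with no gene at chr8:8485690-8486722 also had 2 PETs each in the knockout library. In the control library the pair with Rbm34 and Tomm20 on chromosome 8 had 2 PETs. Within 1 Mb, the knockout library joined the anchor to R3hdm2 (93.3 kb) and the control library to Arhgap9 with Gli1 (43.9 kb), Pip4k2c (79.5 kb) and Arhgef25 with Dtx3 (100 kb), at 1 PET each. Farther off with 1 PET in the knockout library were Erbb3 with Pa2g4 and Zc3h10 (1.26 Mb), Bloc1s1 with Cd63 and Rdh5 (1.63 Mb), Srgap1 (5.24 Mb), Thap2 with Zfc3h1 (11.9 Mb), Mcm3ap with Ybey and Ccdc138. In the control library these were Tbc1d15 (12.1 Mb), an anchor with Gpx4 and Polr2e (47.2 Mb), Rps12, Enpp3, Rmnd1 with Zbtb2 and a place with no gene. Partners found in both libraries were 3, at Atp5d with Midn and Stk11 (47.1 Mb away), at Etl4 and at Gm10800, with 1 PET each in each library.

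Asns had 16 partners in the knockout and 61 in the control library, each with 1 PET. On chromosome 6 it had 0 PETs in the knockout and 4 in the control library, and the interval of 0 to 151.5% of control does not separate the libraries at this depth. The 4 control partners lay 21.96 Mb away at a place with no gene, 43.8 Mb away at Cbx3, Hnrnpa2b1 and Nfe2l3, 57.4 Mb away at Smarcad1 and 135.5 Mb away at Etnk1. The partner found in both libraries was an anchor on chromosome 4 with Creb3, a transcription factor bound to the endoplasmic reticulum, and Gba2, Rgp1 and Tln1.

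Trib3 had 44 partners in the knockout and 99 in the control library, each with 1 PET. Its intrachromosomal PETs were 4 in the knockout and 11 in the control library, 36.4% of control (8.45 to 123%). Sox12, a SOXC transcription factor, was joined to it in both libraries, at 56.6 kb in the knockout and 57.0 kb in the control library, and so was BC024479 on chromosome 9. The other knockout partners were Csnk2a1 with Tbc1d20 (52.1 kb), Atp5e with Slmo2 and Tubb1 (22.1 Mb) and Gm10800 (53.7 Mb). The other control partners within 1 Mb were a place with no gene (19.3 kb) and Rbck1 with Tbc1d20 (31.3 kb), and beyond that Znfx1, Gm14393, Mga, Caprin1 with Nat10, Tanc1, Ak1, Etl4 and a place with no gene, from 14.7 to 131.6 Mb.

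Ppp1r15a had 22 partners in the knockout and 52 in the control library. Its intrachromosomal PETs were 1 in the knockout and 8 in the control library, 12.5% of control (0.282 to 93.2%). The control pair with Bax, Ftl1 and Gys1, 62.9 kb away, had 2 PETs and was the pair within 100 kb with the most PETs at any of the 6 anchors. Bax promotes cell death and Ftl1 (ferritin light chain) stores iron. No PET joined their anchor to Ppp1r15a in the knockout library, where 3 PETs is the number that a count of 0 allows. Other control partners were Bcat2 with Hsd17b14 and Plekha4 (54.7 kb), Prmt1 with Bcl2l12 and Cpt1c (543 kb), Gpi1 with 4931406P16Rik (17.8 Mb), Unc45a with Prc1, Rccd1 and Vps33b (34.7 Mb), Rps9 with Mboat7, Lilrb3 and Tsen34 (49.1 Mb) and Glrx3 (91.9 Mb). The knockout partner was Cadm4 with Zfp428 (27.5 Mb). No partner of Ppp1r15a was found in both libraries.

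Chac1 had 29 partners in the knockout and 49 in the control library. Its intrachromosomal PETs were 7 in the knockout and 8 in the control library, 87.5% of control (27.0 to 276%). The Notch ligand gene Dll4 was joined to Chac1 in both libraries with 1 PET each, at 17.2 kb in the knockout and 16.7 kb in the control library. Other knockout partners included Pcna with Cds2 and 5730494N06Rik (12.9 Mb), Gm10800 (20.7 Mb), Top1 (41.3 Mb), Cir1 with Scrn3 (46.0 Mb) and Dido1 with Slc17a9 and 2310003C23Rik (61.2 Mb). In the control library they were a place with no gene (15.3 kb), Vps18 (53.5 kb), Dstn (24.6 Mb), Gzf1 with Nxt1 (29.3 Mb), Csnk2a1 (32.9 Mb), Slc25a12 (48.0 Mb) and Rif1 with Neb (67.2 Mb).

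Contacts among the stress response genes, and with other genes of the pathway, were counted without computing the number expected at this depth. Of the 15 possible pairs of the 6 anchors, the knockout library joined none and the control library joined Atf4 to Ddit3 and Mars (1 PET) and Asns to Chac1 (1 PET). By the authors' hypergeometric test the adjusted p was 0.0606 for the first pair and 0.0137 for the second. With 3 PETs as the number that a count of 0 allows, a difference in these pairs was not detectable. Contacts with other genes of the pathway, all between chromosomes and of 1 PET, were each found in a single library. The knockout library joined Asns to the anchors of Aars and Sars (alanyl- and seryl-tRNA synthetase), Trib3 to Sesn2, Gcn1l1 and Pycr1, and Atf4 to Nfe2l2. The control library joined Atf4 to Eif2s1 (the subunit of eIF2 that is phosphorylated) and Eif2b3, Trib3 to Eif2b4, Eif4ebp1 and Cars, and Ppp1r15a to Stc2 and Slc3a2. The authors' adjusted p was above 0.05 for Trib3 with Eif2b4 (0.0511) and Eif4ebp1 (0.0561) and for Ppp1r15a with Slc3a2 (0.0819), and below 0.05 for the other pathway pairs. Of the intrachromosomal pairs of the 6 anchors, 22 of 24 in the knockout and 46 of 54 in the control library were below 0.05. A value below 0.05 in the authors' test thus does not set a pair of 1 PET apart from the others.

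Partner anchors shared by at least 2 of the 6 anchors numbered 5 in the knockout and 27 in the control library. The 6 anchors had 218 pairs in the knockout and 530 in the control library. Sharing depends on the number of pairs, and a difference in sharing beyond that was not tested. In the knockout library an anchor of about 1.3 kb at Gm10800 (chr2:98506273-98507612) was joined to Asns, Chac1, Ddit3 with Mars and Trib3, with 1 PET each. It had 767 partners and 7485 PETs in the whole library. The adjusted p of the authors' hypergeometric test was 0.379 for its pair with Asns, 0.320 with Chac1 and 0.0909 with Ddit3 and Mars. In the control library the Gm10800 anchor, with 1776 partners and 9614 PETs, was joined to Atf4 and to Ddit3 with Mars (adjusted p of 0.0907 and 0.104 by the authors' test). Nop58, a core protein of small nucleolar ribonucleoproteins, was joined to Atf4, Chac1, Ddit3 with Mars and Trib3 in the control library, and Mt1 with Mt2 to Atf4, Chac1 and Ddit3 with Mars. In the whole control library the Nop58 anchor had 237 partners and the Mt1 with Mt2 anchor 431. At Nop58 the authors' test gave an adjusted p of 0.119 for Atf4, 0.0437 for Chac1 and 0.0899 for Ddit3 with Mars. At Mt1 with Mt2 it gave 0.0286 for Atf4, 0.0756 for Chac1 and 0.153 for Ddit3 with Mars. The anchor of Ronin itself (Thap11, with Cenpt, Nutf2 and Tsnaxip1) was joined to Atf4 and to Ddit3 with Mars by 1 PET each in the control library and to none of the 6 anchors in the knockout library. The adjusted p of these pairs by the authors' test was 0.0579 for Atf4 and 0.0437 for Ddit3 with Mars. The pair of Ddit3 and Thap11 was 1 of 6 pairs, 3 in each library and of 1 PET each, whose anchors have a run of 100 or more identical bases in common, and without these 6 pairs no scaled ratio of the 7 genes changed sign. The median partner had 13 partners of its own in the knockout and 36 in the control library, against 12 and 32 over all contact ends of the knockout and control library.

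A list of 68 further genes of the stress response had 64 with at least 10 PETs, of which 38 had a scaled log2 ratio below 0 and 26 above 0, with a median of −0.17 beside −0.20 for all genes. By the exact binomial test 1 was called lower and 1 higher, beside 2.23% and 2.01% of all genes. Past 2-fold, 5 were lower and 0 higher, beside 12.2% and 5.99% of all genes. Lars, leucyl-tRNA synthetase, was called lower with 4 PETs in the knockout and 48 in the control library (log2 ratio −2.17, exact binomial adjusted p = 0.00756). These PETs came from 1 anchor in the knockout and 9 in the control library, and Lars was called lower under each of the 4 scalings. Gdf15, a stress-induced cytokine, was called higher with 91 PETs in the knockout and 138 in the control library (0.65, exact binomial adjusted p = 0.0297). Most of these PETs, 82 in the knockout and 121 in the control library, came from its pair with Gatad2a, 642 kb away, whose anchors have a run of 100 or more identical bases in common. Without that pair Gdf15 had 9 PETs in the knockout and 17 in the control library. With all its PETs, Gdf15 was not called when scaled by intrachromosomal PETs (log2 ratio 0.42, exact binomial adjusted p = 0.219) or by PETs over 5 kb (−0.27, 0.300), and with no scaling it was called lower (−0.60, 0.00725).

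Of the genes that were not called, Bcat1 (cytosolic branched-chain aminotransferase) had 2 PETs in the knockout and 25 in the control library and Slc1a4 (a neutral amino acid carrier) 3 in the knockout and 31 in the control library, at scaled log2 ratios of −2.09 and −1.92 with adjusted p of 0.148 and 0.123 by the exact binomial test. At the other end, Slc6a9, a glycine carrier, had 5 PETs in the knockout and 6 in the control library (log2 ratio 0.85), and Cebpg, a partner of ATF4 in dimers, had 12 in the knockout and 18 in the control library (0.63). The most PETs were held by Slc3a2, the heavy chain of amino acid carriers, with 173 in the knockout and 472 in the control library, Pycr1 of proline synthesis with 86 in the knockout and 233 in the control library, and Nfe2l2 (NRF2) with 81 in the knockout and 207 in the control library. Their scaled log2 ratios were −0.19, −0.18 and −0.10. By role, the median log2 ratio was −0.25 for 11 tRNA synthetases, −0.32 for 10 genes of amino acid synthesis, −0.21 for 8 amino acid carriers, −0.11 for 8 stress outputs and −0.05 for 8 genes of the endoplasmic reticulum arm. It was −0.01 for 12 eIF2 kinases, exchange and phosphatase factors and 0.03 for 7 transcription factors.

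**Figure D5:**
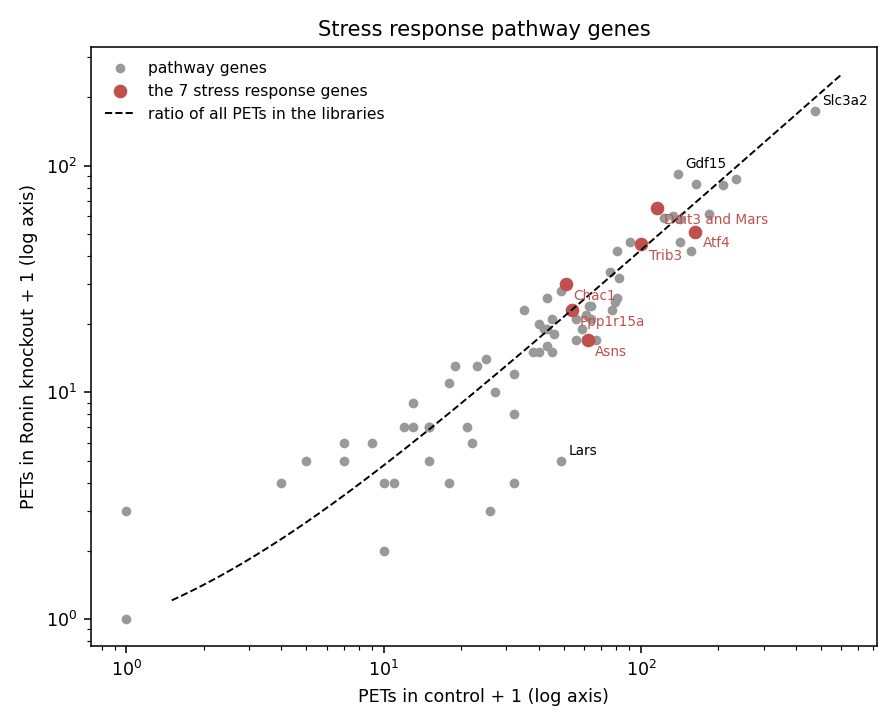
PETs per gene plus 1 in the Ronin knockout (vertical, log axis) and control library (horizontal, log axis) for the 68 pathway genes (grey) and the stress response genes (red), with a dashed line at the ratio of all PETs of the libraries (41.8%). Lars lies below the line with 4 PETs in the knockout and 48 in the control library, and the 6 red points lie on both sides of it.

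The genes whose contacts were most like those of a stress response gene were its neighbours at the same anchor. By the share of contact pairs in common, over both libraries, Rps19bp1 was at 1 and Smcr7l at 0.97 with Atf4, and Dctn2 and Mbd6 were at 1 with Ddit3 and Mars. Rbck1 was at 0.95 with Trib3 and Tulp2 at 0.83 with Ppp1r15a, and no other gene shared over 0.5 of its pairs with any of the 7 genes. The values given for Atf4, Ddit3, Mars, Trib3 and Ppp1r15a are therefore values of their anchors, and the share of each neighbour in them was not tested.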

How the data were processed

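RNA Pol II ChIA-PET was measured in 2 libraries, Ronin knockout and control, each merged by the authors from 2 replicates. Per the study's methods, linkers were removed with cutadapt, each mate was mapped to mm9 with Bowtie 1.1.1, duplicates were collapsed, peaks were called with MACS 1.4.2 and intrachromosomal PETs under 4 kb were dropped. The deposited values are raw counts of PETs per pair of peaks, counts of PETs per peak, the signed distance between peaks as a score in bp, and a p-value with its adjusted value per pair from the authors' test.

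Gene bodies came from the protein-coding annotation in GENCODE vM1 (NCBIM37), merged by symbol. PETs were summed over all pairs with an anchor within 1 kb of the gene body, each pair once per gene. Anchor starts are 0-based in the files and were printed from base 1. Libraries were scaled to the same total, with a pseudocount of 1 on the log2 scale, and compared per gene by an exact two-sided binomial test with Benjamini-Hochberg adjustment. With PETs simulated from that binomial model, 183 of 200 genes changed 4-fold were recovered and 5 unchanged genes were called. The simulation held no spread between replicates and no pairs of many PETs, so it cannot show how the test behaves on these libraries. Folds were counted over genes with at least 10 PETs. Totals were 65276 PETs in the knockout and 156097 in the control library. Intervals are 95% Clopper-Pearson (ratios) or exact Poisson intervals and cover counting error only, as PETs carry no molecular identifiers.

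The 7 genes, the pathway list and the marker lists were chosen with earlier results of these data known. Partners were named when they lay on the same chromosome, had at least 2 PETs, were found in both libraries (overlap of at least 1 bp) or lay at another stress response gene or a pathway gene; a few partners that this rule names are not reported here. Pathway genes were named for the 3 largest, the 3 smallest ratios, the 3 highest counts and any call. The search for an identical stretch at Gdf15 was added after its values were seen. Alternatives were other rows, windows, scalings, pseudocounts and minimums, in 37 combinations of result and choice, with 3 more added after seeing the data. Python 3.11.15, numpy 2.4.6, pandas 2.3.3, scipy 1.17.1 and matplotlib 3.10.9 were used. No test between conditions was possible, since each has 1 library.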

Additional observations from a re-analysis of the deposited data

How the results depend on the processing

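The scaled log2 ratios of the 7 genes kept their sign and their side of the threshold in 63 of 82 recomputed values, reversed in 13, of which 4 came with a call, and gained a call at the same sign in 6, with adjusted p between 2.14e-13 and 1. Ddit3 and Mars are each counted here although their values are those of 1 anchor, so the values are not independent. The ratio reversed to −0.50 for Ddit3 and Mars, −0.45 for Chac1 and −0.83 for Trib3 with scaling by PETs over 5 kb, and to −0.82, −0.82, −0.77 and −1.15 for Ddit3, Mars, Chac1 and Trib3 with no scaling. Trib3 also reversed to −0.15 with scaling by intrachromosomal PETs, −0.38 with intrachromosomal pairs and −0.50 with those at an adjusted p below 0.05. Chac1 reversed to −1.45 with pairs of at least 2 PETs, where Asns and Trib3 had none, and Ppp1r15a to 0.28 with each pair counted once, an alternative chosen after seeing the data.

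Of all genes, 284 were called lower and 256 higher. The counts were 17 and 30 with intrachromosomal pairs, 14 and 29 with those at an adjusted p below 0.05, 149 and 46 with pairs of at least 2 PETs, 4107 and 131 with scaling by PETs over 5 kb, and 5438 and 99 with no scaling. Scaling by intrachromosomal PETs called 837 lower and counting each pair once 87. Past 2-fold, 1090 were lower and 535 higher, against 314 and 115, 227 and 128, 338 and 78, 4894 and 148, and 6234 and 110 in the same order, and 653 lower with each pair counted once. The genes tested were 12749 with all pairs, and 9683, 9663 and 3489 with the choices of pairs in that order. Those with at least 10 PETs were 8929 with all pairs, and 1742, 1639 and 815 with these choices. The counts are therefore not shares, and a lower count with fewer pairs does not mean a lower share of genes. The median number of partners of the 7 genes, 44 in the knockout and 99 in the control library, was 4 and 10 with intrachromosomal pairs, 3 and 8 with those at an adjusted p below 0.05, and 0 and 1 with pairs of at least 2 PETs, as fewer pairs enter. The causes of the other shifts were not tested. The window around genes, a pseudocount of 0.5, a minimum of 5 PETs and leaving out pairs with an identical stretch reversed no ratio. No paired analysis was possible because each condition has 1 merged library. At a depth of 16 to 64 PETs per gene in the knockout library, the counting intervals limit what can be seen.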
